A study of Mus musculus with 4 samples.

Results

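The gene segments of the T cell receptor beta chain were followed in 4 RNA sequencing libraries of sorted mouse thymocytes. The members were the genes on chromosome 6 whose symbol begins with Trbv, Trbd, Trbj or Trbc followed by a digit, taken by symbol alone and not by their level. Of 53 such genes in the GENCODE M21 annotation, 40 of the 35275 genes counted were analysed: 22 V, 2 D, 14 J and 2 C segments. The other 13, Trbv4 and 12 V pseudogenes, were not analysed here. Among the 40, Trbv10 and Trbj2-6 are annotated as pseudogenes. The libraries were KO group 3, KO group 2, WT group 3 and WT group 2, with 1 library per group. KO stands for Uba3ΔT mice, given as Uba3-/- in the genotype field, and ΔT marks a deletion in T cells. WT stands for Uba3F/F mice, given as wild type, which carry the unrecombined floxed alleles. The Cre driver and the number of mice pooled are not stated in the labels. All mice were untreated C57BL/6 animals of 6 to 8 weeks. Group 3 thymocytes were sorted as TCRβhi CD69hi and group 2 thymocytes as TCRβint CD69hi, and total RNA was extracted from them. The Uba3 protein is the catalytic subunit of the NEDD8-activating enzyme, which starts the attachment of NEDD8 to cullins, the scaffolds of a large family of ubiquitin ligases.

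A beta chain gene is assembled in each developing T cell. The RAG1 and RAG2 recombinase first joins a D to a J segment and then a V segment to the joined DJ, deleting or inverting the DNA between, and splicing connects the J segment to a constant (C) segment. The first D segment and the Trbj1 cluster lie upstream of Trbc1, and the second D segment and the Trbj2 cluster lie between Trbc1 and Trbc2. Most V segments lie far upstream of them, and Trbv31 lies downstream of Trbc2 in the opposite orientation. TCRβ rises on the cell surface and CD69 appears as thymocytes are positively selected, so group 2 and group 3 are consecutive steps of that passage. In bulk RNA each segment's level is a sum over many cells that chose different segments, and fewer cells that use a segment cannot be told apart from less RNA per cell.

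The libraries held 8043077 to 10299863 counts, of which beta chain segments made up 0.726% in KO group 3, 1.05% in KO group 2, 0.862% in WT group 3 and 0.959% in WT group 2. Both KO libraries are put in group 3 and both WT libraries in group 2 by the labels' cell type entry, which contradicts the titles and the design text; the titles were followed. Uba3 itself ran against the genotype labels, with 89.9 CPM (the count scaled to library size with edgeR's TMM factors) in KO group 3, 73.3 in KO group 2, 43.7 in WT group 3 and 43.2 in WT group 2. "KO" below therefore means the libraries labelled KO, and every direction drawn from them rests on that label. KO group 3 and WT group 2 listed 20521 and 20440 genes with at least 1 count, whereas KO group 2 and WT group 3 listed 23925 and 23325. The 9 thymocyte markers summed to 12676 to 15161 CPM and all had counts. Markers of other cells summed to 93.5 to 126 CPM for gamma delta T cells, 55.3 to 76.9 for B cells, 353 to 525 for erythroid cells and 26.4 to 32.5 for thymic epithelium. Myeloid markers were at 94.8 and 83.6 CPM in KO group 3 and KO group 2, against 59.1 and 55.4 CPM in WT group 3 and WT group 2. Nearly all of the thymic epithelium sum was Epcam, at 25.0 to 31.3 CPM, while Krt5, Krt8, Psmb11 and Foxn1 did not reach 2 CPM in any library. No marker of these lists that was found was at 0 in all 4 libraries, and 4 of the 8 gamma delta symbols were found. Of the 12490 genes measured (at least 2 CPM in 1 library), 36 were beta chain segments. The 4 segments below this level were Trbv10, Trbv21, Trbd1 and Trbj2-4.

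The J segments are shown because the only segments that edgeR called between genotypes were among them. Those calls were near the threshold and were lost in several other settings given below. Each J segment is read in the germline as a short exon of the + strand, and most J segments carry a phenylalanine-glycine core that the joined chain keeps. Capitals mark a motif that spells that core, TTNGG followed after 4 bases of any kind by GG, searched on the transcript strand alone over each whole J transcript and over the last 53 bases of other transcripts. Sequences and coordinates are those of the GENCODE M21 transcripts on GRCm38, 5′ to 3′; for Trbj1-3 the receptor transcript of 50 bases is shown, and the annotated gene runs on to 41534376.
Trbj1-3 (chr6:41534323-41534372): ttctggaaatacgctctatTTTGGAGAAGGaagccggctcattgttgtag
Trbj1-4 (chr6:41534811-41534861): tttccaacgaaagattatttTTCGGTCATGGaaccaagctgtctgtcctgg
Trbj1-5 (chr6:41535084-41535133): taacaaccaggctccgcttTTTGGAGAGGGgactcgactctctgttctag
Trbj1-6 (chr6:41535554-41535606): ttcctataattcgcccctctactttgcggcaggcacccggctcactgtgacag
Trbj1-7 (chr6:41535642-41535687): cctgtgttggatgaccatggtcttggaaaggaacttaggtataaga
Trbj2-6 (chr6:41543598-41543645): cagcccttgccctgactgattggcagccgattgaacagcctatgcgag
Trbj2-7 (chr6:41543810-41543856): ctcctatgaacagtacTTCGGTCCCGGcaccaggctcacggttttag
The motif was present in 11 of the 14 J segments and in 0.653% of the ends of 141654 annotated transcripts. Trbj1-6, Trbj1-7 and the pseudogene Trbj2-6 held no match, which says only that these letters are not in their windows. Those 3 segments together made up 27.7% of J counts in KO group 3, 27.8% in KO group 2, 27.0% in WT group 3 and 28.6% in WT group 2.

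The V segments shown are the 3 with the largest mean shares, a close relative of the second, and the only V segment with at least 30 counts whose share differed more than 2-fold between compared libraries. The last 40 bases of each transcript are given, on the + strand of GRCm38. Capitals mark TGTGCNAGC, which spells the cysteine, alanine and serine that commonly end a V segment.
Trbv13-2 (chr6:41121396-41121832): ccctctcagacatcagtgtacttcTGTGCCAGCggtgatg
Trbv12-2 (chr6:41118851-41119364): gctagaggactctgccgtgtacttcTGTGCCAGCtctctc
Trbv16 (chr6:41151740-41152230): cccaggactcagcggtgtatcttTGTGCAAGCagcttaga
Trbv12-1 (chr6:41113550-41114067): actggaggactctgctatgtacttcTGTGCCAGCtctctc
Trbv30 (chr6:41281376-41281990): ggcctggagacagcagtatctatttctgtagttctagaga
This motif was found in 16 of the 22 V segments and in 0.0670% of the ends of 141704 transcripts. It was absent from the windows of Trbv1, Trbv10, Trbv20, Trbv23, Trbv30 and Trbv31. Related V segments share long runs: 50 bases between Trbv13-2 and Trbv13-3 (90.6% identity over 340 aligned bases), 44 between Trbv12-1 and Trbv12-2 (88.3% over 385) and 34 between Trbv13-1 and Trbv13-2 (88.7% over 337). Counts within these families are therefore less certain than their sums.

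Constant segment transcripts were at the highest level of the 3 classes, and their summed level did not follow genotype. Per length, the deposited RPKM (counts scaled to gene length and library size) of the C segments summed to 11150 in KO group 3, 17410 in KO group 2, 13844 in WT group 3 and 15194 in WT group 2. V segments summed to 3924, 3882, 3510 and 4272 RPKM in the same order of libraries, and J segments to 2559, 3786, 4797 and 5016 RPKM. The V sum was thus 35.2% of the C sum in KO group 3, 22.3% in KO group 2, 25.4% in WT group 3 and 28.1% in WT group 2. The J sum was 22.9% of the C sum in KO group 3 and 21.7% in KO group 2, against 34.7% in WT group 3 and 33.0% in WT group 2. Both KO libraries therefore lay below both WT libraries in J per C, while for V per C the KO libraries were the highest and the lowest of the 4. J segments are only 45 to 54 bases and D segments 12 to 14, and the rule by which a read overlapping so short a gene was counted is not given in the sources used here.

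**Figure D1:**
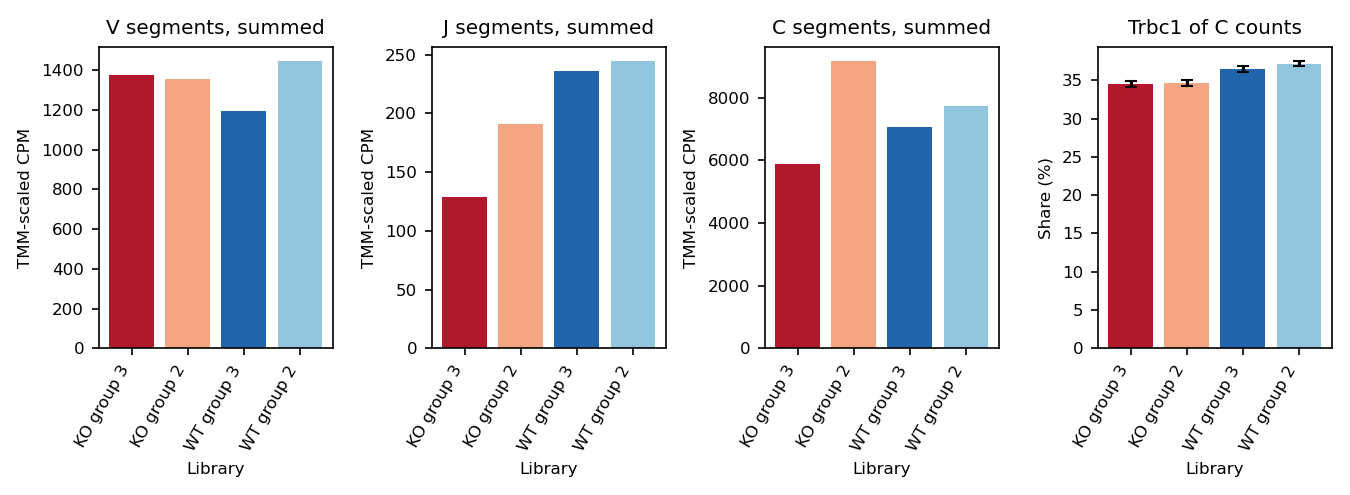
Summed TMM-scaled CPM of V, J and C segments in each of the 4 libraries (bars, from 0), and the Trbc1 share of Trbc1 plus Trbc2 counts in percent with its 95% exact binomial interval. J segments were at 129 and 191 CPM in the KO libraries of group 3 and group 2 and at 236 and 244 CPM in the WT libraries.

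As ratios of TMM-scaled counts, J segments in KO over WT were at 0.547 in group 3 (95% interval 0.509 to 0.588) and at 0.782 in group 2 (0.735 to 0.832). C segments were at 0.831 in group 3 (0.821 to 0.841) and at 1.19 in group 2 (1.17 to 1.20). V segments were at 1.15 in group 3 (1.12 to 1.18) and at 0.940 in group 2 (0.918 to 0.963). J was lower in KO in both sorted groups, whereas C and V moved in opposite directions in them. Taken per C count, the KO over WT ratio of J was 0.659 (0.613 to 0.708) in group 3 and 0.660 (0.620 to 0.702) in group 2. Taken per V count it was 0.475 in group 3 and 0.832 in group 2. The intervals of scaled counts are exact conditional binomial ones, and those per C count come from a normal approximation on the log scale. All of them cover counting error only, and none of these ratios could be checked against a replicate library.

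Trbc1 and Trbc2, the interchangeable constant regions of the chain, differed little in their proportion. Trbc1 had 3891 RPKM in KO group 3, 6099 in KO group 2, 5104 in WT group 3 and 5703 in WT group 2. Trbc2 had 7260 RPKM in KO group 3, 11311 in KO group 2, 8740 in WT group 3 and 9491 in WT group 2, above Trbc1 in every library. Trbc1 made up 34.5% of C counts in KO group 3 (exact binomial 95% interval 34.1 to 34.9) and 34.6% in KO group 2 (34.3 to 35.0). It made up 36.5% in WT group 3 (36.1 to 36.9) and 37.1% in WT group 2 (36.8 to 37.5). The KO intervals lay below the WT intervals, with a ratio of shares of 0.946 in group 3 (0.928 to 0.965) and 0.933 in group 2 (0.918 to 0.948). The segments are hard to separate: the first 500 bases of their transcripts are 96.2% identical, with 19 differing bases and a shared run of 259 bases. A stretch of 120 bases that holds most of these differences is shown, with the differing bases in capitals (bases 373 to 492 of each transcript).
Trbc1 (chr6:41538218-41539881): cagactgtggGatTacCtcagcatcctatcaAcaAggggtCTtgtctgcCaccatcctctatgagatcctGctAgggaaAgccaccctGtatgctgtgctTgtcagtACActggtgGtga
Trbc2 (chr6:41546730-41548352): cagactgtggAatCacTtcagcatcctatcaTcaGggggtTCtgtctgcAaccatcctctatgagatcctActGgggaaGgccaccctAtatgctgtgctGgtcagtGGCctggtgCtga

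V segment use was broad and similar in the 4 libraries. The inverse Simpson index, the number of equally used segments that would give the same concentration of counts, was 15.1 in KO group 3, 14.4 in KO group 2, 14.9 in WT group 3 and 15.1 in WT group 2. Across the 22 V segments, Spearman's rho between the shares of 2 libraries was 0.964 to 0.984, and 3.88% to 6.37% of V counts would have to move to another segment to make 2 libraries alike. These are descriptions across segments of shared length and sequence, not independent points. The lowest rho was that between KO group 2 and WT group 2, and the smallest difference that between KO group 3 and WT group 3.

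By the mean over the 4 libraries, the largest shares of V counts belonged to Trbv13-2, Trbv12-2 and Trbv16; in WT group 2 alone, Trbv3 came before Trbv16. Trbv13-2 made up 9.89% in KO group 3, 11.5% in KO group 2, 9.08% in WT group 3 and 10.3% in WT group 2. Trbv12-2 made up 9.13% in KO group 3, 10.5% in KO group 2, 9.46% in WT group 3 and 10.2% in WT group 2. Trbv16 made up 8.05% in KO group 3, 8.65% in KO group 2, 9.13% in WT group 3 and 8.44% in WT group 2. The 95% counting intervals of Trbv13-2 and Trbv12-2 overlapped in every library, which by itself does not settle whether their order is open. Trbv12-2 came before Trbv13-2 in WT group 3 alone, and the difference between them was not tested. Per length, Trbv13-2 was the highest V segment in all 4 libraries, with 419 RPKM in KO group 3, 484 in KO group 2, 344 in WT group 3 and 477 in WT group 2. The 3 segments together held 27.1% of V counts in KO group 3, 30.7% in KO group 2, 27.7% in WT group 3 and 29.0% in WT group 2.

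Mouse invariant natural killer T cells are known to use beta chains of the Trbv13 family, Trbv29 and Trbv1 more than others. The 3 Trbv13 segments made up 18.9% of V counts in KO group 3, 20.4% in KO group 2, 17.8% in WT group 3 and 18.4% in WT group 2. Together with the interleaved Trbv12-1 and Trbv12-2, this stretch of 5 segments held 33.7%, 36.7%, 32.6% and 34.3% of V counts in KO group 3, KO group 2, WT group 3 and WT group 2. Trbv29 made up 2.21% in KO group 3 and 2.14% in KO group 2, against 2.57% in WT group 3 and 2.74% in WT group 2. Trbv1, the V segment farthest from the D segments, made up 7.80% in KO group 3 and 7.04% in KO group 2, against 7.11% in WT group 3 and 5.98% in WT group 2. In shares, the genotypes did not overlap in Trbv29, lower in KO, or in the summed Trbv13 family, higher in KO. They did overlap in Trbv1, though not in CPM, where both KO libraries were higher. The KO over WT share of the Trbv13 family was 1.06 in group 3 (0.998 to 1.13) and 1.11 in group 2 (1.05 to 1.17). That of Trbv29 was 0.859 in group 3 (0.723 to 1.02) and 0.778 in group 2 (0.663 to 0.912). In CPM rather than shares, both KO libraries lay below both WT libraries in 19.7% of all measured genes and above them in 18.8%.

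The remaining V segments with a mean share of at least 3% were Trbv3, Trbv2, Trbv19, Trbv5, Trbv13-1, Trbv12-1, Trbv31 and Trbv15. Trbv3 made up 7.84% in KO group 3, 7.33% in KO group 2, 7.96% in WT group 3 and 8.78% in WT group 2, so both KO shares lay below both WT shares. Its KO over WT ratio of shares was 0.985 in group 3 (0.896 to 1.08) and 0.834 in group 2 (0.765 to 0.909). Trbv2 lay between 6.49% and 7.60% in the 4 libraries, Trbv19 between 6.56% and 7.69% and Trbv5 between 5.46% and 6.84%. Trbv13-1 lay between 5.46% and 5.96%, with both KO shares above both WT shares, and Trbv12-1 between 5.38% and 5.86%. For Trbv13-1 the ratio of shares was 1.02 in group 3 (0.917 to 1.14) and 1.09 in group 2 (0.985 to 1.21), so both intervals include 1. Trbv31, which joins by inversion, made up 5.36% in KO group 3, 4.23% in KO group 2, 5.02% in WT group 3 and 4.76% in WT group 2. Trbv15 made up 3.38% in KO group 3, 4.63% in KO group 2, 3.37% in WT group 3 and 4.08% in WT group 2. Group 3 lay below group 2 in Trbv15 and above it in Trbv31 in both genotypes. These separations are in shares of V counts. In CPM, Trbv13-1 and Trbv15 were separated in the same direction, and Trbv3 overlapped between the genotypes. Trbv31 in CPM was lower in group 3 than in group 2 in WT (59.8 against 68.8). Separations in CPM are common among all measured genes. Of these, 19.7% had both KO libraries below both WT libraries and 18.8% had them above. Both group 3 libraries lay below both group 2 libraries in 16.2% and above them in 16.1%. Of the V segments below 3%, the pseudogene Trbv10 had 1 count in KO group 3 and 0 in the other libraries, and Trbv21 had 5 to 16 counts.

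**Figure D2:**
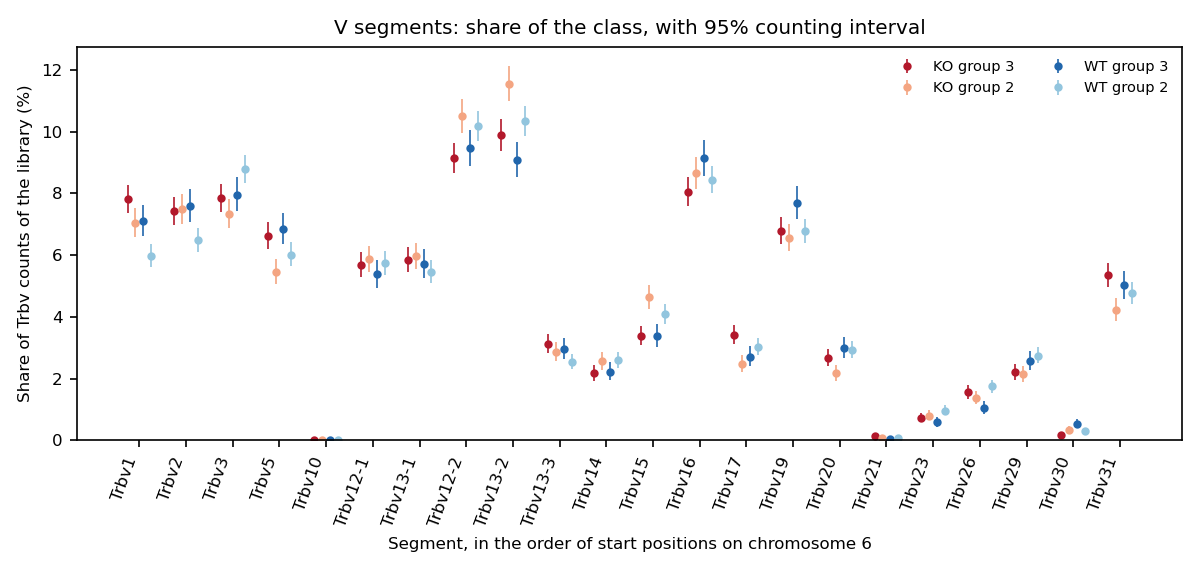
Share of each V segment in the summed V counts of its library, in percent (points), with exact binomial 95% intervals (bars), in the order of start positions on chromosome 6. The 4 libraries follow one profile, with Trbv13-2 between 9.08% and 11.5% and Trbv10, Trbv21 and Trbv30 near 0.

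In single ratios of shares, more V segments than J segments passed counting error, though most by small factors. The interval of the KO over WT ratio of shares excluded 1 for 5 of 20 measured V segments in group 3 (25.0%) and for 10 in group 2 (50.0%), against 1 of 13 J segments in each (7.69%). For group 3 over group 2 it excluded 1 for 9 V segments in KO (45.0%) and 11 in WT (55.0%), and again for 1 J segment in each. V counts are several times J counts, so their intervals are narrower. The J segment of KO over WT in group 2 was Trbj2-5, which was measured only through KO group 2. Past 2-fold with at least 30 counts, 1 V segment was found. Trbv30 had 23 counts in KO group 3, 40 in KO group 2, 50 in WT group 3 and 47 in WT group 2. Its share in KO over WT was 0.342 in group 3 (0.199 to 0.571) and 1.08 in group 2 (0.688 to 1.68), so the share was lowest in KO group 3 and highest in WT group 3.

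For levels rather than shares, the shared genotype effect was tested with edgeR's quasi-likelihood test over all 12490 measured genes, with sorted group in the model. Its error comes from how far effects differ between the sorted groups over all genes, taken as a trend, not from variation between mice. A segment's own disagreement between the sorted groups does not enter its error, so its adjusted p does not measure that agreement. Among all measured genes 2.94% were called higher and 1.81% lower in KO (Benjamini-Hochberg adjusted p under 0.05). Of the 36 beta chain segments measured, 0 were called higher and 3 lower, all in the Trbj1 cluster. At an unadjusted p under 0.05, 7 J segments were lower, beside 6.11% of all genes, and 0 segments higher, beside 7.17%.

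No V segment was called. The smallest adjusted p of the 20 V segments measured was 0.573 (edgeR), 0 of them had an unadjusted p under 0.05, and DESeq2 also called 0. Their fitted log2 differences, KO minus WT, had a median of 0.04, beside 0.00 over all genes, and 8 of 20 lay below 0. Trbv1 had the largest positive difference among them. It had 107 CPM in KO group 3 and 95.6 in KO group 2, against 84.7 in WT group 3 and 86.4 in WT group 2 (log2 difference 0.24, SE 0.16, edgeR adjusted p = 0.573). The constant segments were not called either: Trbc1 had a log2 difference of -0.10 (SE 0.14) and an edgeR adjusted p of 0.847, and Trbc2 one of 0.04 (SE 0.14) and 0.954.

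J segments were lower in the KO libraries as a class. Of 13 measured, 12 had a log2 difference below 0, beside 49.6% of all genes, and their median was -0.57. Trbj1-5 had 26.1 CPM in KO group 3 and 42.5 in KO group 2, against 55.1 in WT group 3 and 50.5 in WT group 2. Trbj1-4 had 18.4 CPM in KO group 3 and 24.0 in KO group 2, against 33.7 in WT group 3 and 34.2 in WT group 2. Trbj1-3 had 14.7 CPM in KO group 3 and 25.8 in KO group 2, against 30.9 in WT group 3 and 33.1 in WT group 2. In all 3, KO group 3 was lowest, KO group 2 came next, and the genotypes did not overlap. Their fitted log2 differences were -0.64 (SE 0.19, edgeR adjusted p = 0.0210), -0.68 (SE 0.22, adjusted p = 0.0391) and -0.68 (SE 0.22, adjusted p = 0.0491).

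These 3 calls were near the threshold. DESeq2's Wald test called none of them (adjusted p 0.499 to 0.628). With a library left out, sorted group had to leave the model too, and edgeR without sorted group called none of the 3 even with all 4 libraries, so the loss cannot be put down to a single library. In that model the log2 differences with all 4 libraries were -0.62 for Trbj1-5, -0.68 for Trbj1-4 and -0.67 for Trbj1-3. Without KO group 3 they were -0.31, -0.50 and -0.31, and without KO group 2 they were -1.01, -0.89 and -1.12. Myeloid markers, at 94.8 and 83.6 CPM in KO group 3 and KO group 2 against 59.1 and 55.4 in WT group 3 and WT group 2, differed in the other direction. By edgeR 1 of 6 was called higher and 0 lower, beside 2.94% and 1.81% of all measured genes. The part of these markers in the J difference was not tested.

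**Figure D3:**
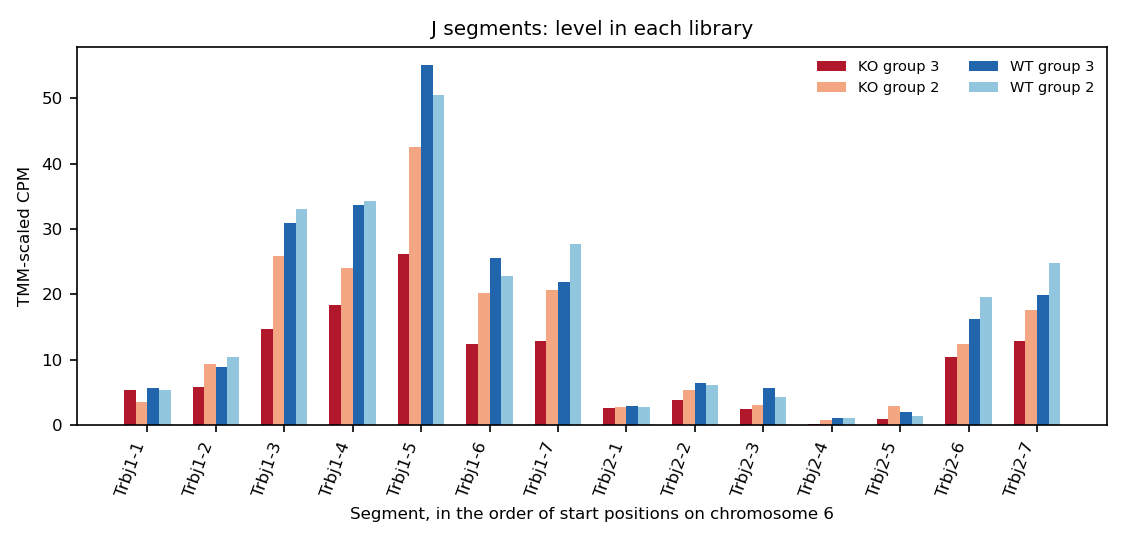
TMM-scaled CPM of each J segment in the 4 libraries (bars, from 0), in the order of start positions on chromosome 6. Trbj1-3, Trbj1-4 and Trbj1-5 were lower in both KO libraries than in both WT libraries, with Trbj1-5 at 26.1 and 42.5 CPM against 55.1 and 50.5 CPM.

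The other J segments with a mean share of at least 3% were Trbj1-2, Trbj1-6, Trbj1-7, Trbj2-6 and Trbj2-7. Trbj1-6 had 12.4 CPM in KO group 3 and 20.2 in KO group 2, against 25.5 in WT group 3 and 22.8 in WT group 2. Trbj1-7 had 12.9 CPM in KO group 3 and 20.6 in KO group 2, against 22.0 in WT group 3 and 27.6 in WT group 2. Both sets of libraries were apart, as in Trbj1-5. Trbj2-7, the last J segment before Trbc2, had 12.8 CPM in KO group 3 and 17.7 in KO group 2, against 19.9 in WT group 3 and 24.9 in WT group 2. The pseudogene Trbj2-6 had 10.5 CPM in KO group 3 and 12.5 in KO group 2, against 16.3 in WT group 3 and 19.5 in WT group 2. In these 4 the log2 difference was between -0.56 and -0.64 with SEs of 0.24 to 0.28, and edgeR's adjusted p was between 0.205 and 0.267. Trbj1-2 was not separated, with 5.88 CPM in KO group 3, 9.40 in KO group 2, 8.83 in WT group 3 and 10.5 in WT group 2.

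Within the J class, the Trbj1 cluster kept 74.1% to 77.0% of the counts while the level of the class differed. The Trbj1 cluster made up 74.1% of J counts in KO group 3 (71.6 to 76.6), 76.4% in KO group 2 (74.3 to 78.4), 77.0% in WT group 3 (75.0 to 78.8) and 75.3% in WT group 2 (73.6 to 77.0). Its share in KO over WT was 0.963 in group 3 (0.886 to 1.05) and 1.01 in group 2 (0.945 to 1.09). Both intervals include 1, but they take the J total as fixed and are too wide for so large a share. Trbj1-5 was the largest, with 20.2% in KO group 3, 22.2% in KO group 2, 23.3% in WT group 3 and 20.7% in WT group 2. Trbj1-3 to Trbj1-7 together, the last 5 J segments upstream of Trbc1, held 65.4% in KO group 3, 69.6% in KO group 2, 70.8% in WT group 3 and 68.8% in WT group 2. Trbj1-1 and Trbj1-2 together held 8.70% in KO group 3, 6.81% in KO group 2, 6.13% in WT group 3 and 6.51% in WT group 2. The share of this pair in KO over WT was 1.42 in group 3 (1.08 to 1.86) and 1.05 in group 2 (0.818 to 1.33). In the other cluster, the last pair upstream of Trbc2 held 18.0%, 15.8%, 15.3% and 18.2% in KO group 3, KO group 2, WT group 3 and WT group 2, while Trbj2-1 to Trbj2-5 held 7.80%, 7.82%, 7.69% and 6.51%. Spearman's rho between J shares of 2 libraries was 0.972 to 0.991 over 14 segments, and 4.43% to 7.26% of J counts differed. The inverse Simpson index was 8.67 in KO group 3, 8.12 in KO group 2, 7.82 in WT group 3 and 8.18 in WT group 2.

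Trbj1-1, the first J segment after Trbd1, and Trbj2-5, named after its values were seen, differed more in share between single libraries. Trbj1-1 had 51 counts in KO group 3, 32 in KO group 2, 46 in WT group 3 and 57 in WT group 2. Its share of J counts was 4.15% in KO group 3, 1.90% in KO group 2, 2.39% in WT group 3 and 2.22% in WT group 2. In KO the ratio of its shares in group 3 over group 2 was 2.19 (1.38 to 3.52), and in WT it was 1.08 (0.713 to 1.61). Trbj2-5 had 9 counts in KO group 3, 26 in KO group 2, 16 in WT group 3 and 15 in WT group 2. Its share in KO over WT was 0.880 in group 3 (0.343 to 2.11) and 2.63 in group 2 (1.34 to 5.35). Trbj2-5 was measured only through KO group 2 (2.94 CPM), so a high value there was a condition of its inclusion.

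A deposited count in a J segment does not show which transcript it came from. Reads of joined receptor genes, of incomplete DJ joins and of unrearranged J to C transcripts cannot be told apart, and a read across a V to DJ joint holds bases absent from the germline genome. Whether such reads were lost in alignment equally in the 4 libraries was not tested.

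The D segments had few counts. Trbd2 had 33 counts in KO group 3, 16 in KO group 2, 9 in WT group 3 and 25 in WT group 2, and Trbd1 had 8, 2, 5 and 15 counts in the same order of libraries. Of these, Trbd2 passed 2-fold higher in KO over WT in group 3 (ratio 3.14, 1.47 to 7.46), while in group 2 its ratio was 0.761 (0.380 to 1.48). Their short sequences consist mostly of g.
Trbd1 (chr6:41533201-41533212): gggacagggggc
Trbd2 (chr6:41542163-41542176): gggactgggggggc

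Taken pair by pair, past 2-fold on the log2 scale of CPM plus 0.5 and beyond counting error, KO over WT in group 3 held 5 lower segments, beside 5.60% of all measured genes, and 1 higher, beside 2.17%. The lower ones were Trbj1-3 (ratio 0.476, 0.384 to 0.587), Trbj1-5 (0.475, 0.405 to 0.556), Trbj1-6 (0.486, 0.384 to 0.612), Trbj2-3 (0.447, 0.261 to 0.747) and Trbv30 (0.394, 0.229 to 0.658), and the higher one Trbd2. KO over WT in group 2 held 0 in either direction, beside 2.44% of genes lower and 6.45% higher. Trbj1-3 was at 0.781 (0.658 to 0.926) there and Trbj1-5 at 0.841 (0.735 to 0.962), lower by less. Counting every segment whose interval excluded 1, KO over WT in group 3 had 14 higher, beside 24.5% of genes, and 13 lower, beside 23.7%. In group 2 it had 4 higher, beside 27.3%, and 13 lower, beside 25.8%. Between the genotypes without regard to size, 11 segments had both KO libraries below both WT libraries, beside 19.7% of all genes, and 4 had both above, beside 18.8%. The 11 were 10 J segments and Trbv29, and the 4 were Trbv1, Trbv2, Trbv13-1 and Trbv13-3.

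**Figure D4:**
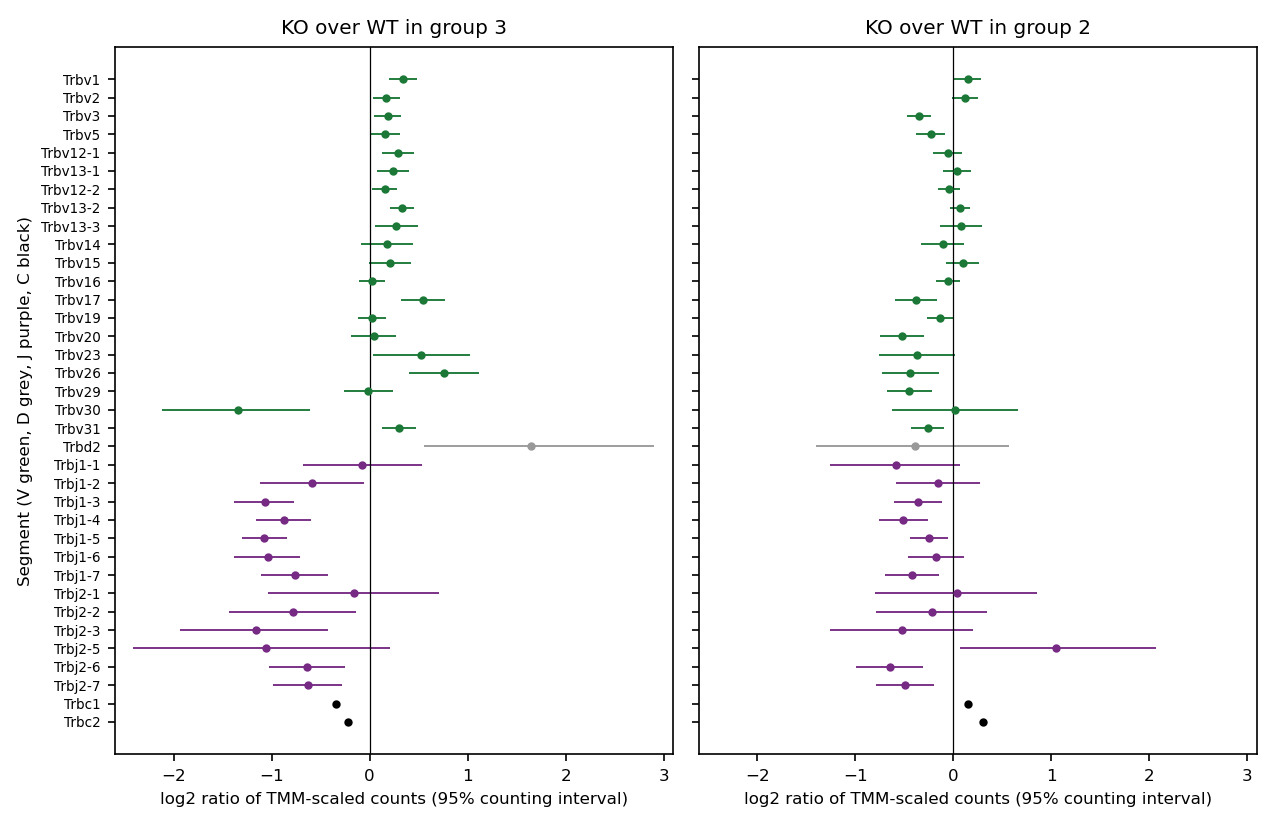
Log2 ratio of TMM-scaled counts, KO over WT, for each measured segment in group 3 (left) and group 2 (right), with 95% counting intervals (bars). V segments are green, D grey, J purple and C black; the J points lie below 0 for 13 of 13 segments in group 3 and 11 of 13 in group 2.

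From group 2 to group 3, constant segment RNA was lower in group 3 and no segment was called. With edgeR's test of the shared sorted group effect, 0 of 36 segments passed, beside 1.14% of genes lower and 2.17% higher, and DESeq2 also called 0. At an unadjusted p under 0.05, 5 segments were lower, beside 4.89% of genes, and 0 higher, beside 5.93%. The 5 were Trbc1, Trbc2, Trbv15, Trbv13-2 and Trbj1-7. In KO, Trbc1 had 2027 CPM in group 3 and 3171 in group 2, and in WT 2578 in group 3 and 2865 in group 2 (log2 difference -0.40, SE 0.14, edgeR adjusted p = 0.0930). Trbc2 had a log2 difference of -0.37 (SE 0.14, adjusted p = 0.150), and Trbv15 one of -0.49 (SE 0.18, adjusted p = 0.129). Summed over a class, C in group 3 over group 2 was at 0.642 in KO and 0.916 in WT, V at 1.01 and 0.826, and J at 0.676 and 0.966. Per C count, J stood at 1.05 in both genotypes, with intervals of 0.977 to 1.13 in KO and 0.993 to 1.12 in WT. These ratios share their libraries with the KO over WT ratios above, so a library that is low enters both.

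Over the 4 libraries, 10 segments had both group 3 libraries below both group 2 libraries, beside 16.2% of genes, and 0 had both above, beside 16.1%. Those 10 were both C segments, Trbj1-2 and the V segments Trbv12-1, Trbv12-2, Trbv13-2, Trbv14, Trbv15, Trbv16 and Trbv23. Past 2-fold, KO in group 3 over group 2 held 1 lower segment, Trbj2-5 with 9 counts in group 3 and 26 in group 2, beside 5.99% of genes lower, and 0 higher beside 1.85%. Trbj2-5 reached 2 CPM in KO group 2 alone, so its ratio is taken against the library that let it be measured. In WT 0 segments passed, beside 1.86% of genes lower and 5.22% higher. With every interval that excluded 1 counted, KO had 6 segments higher in group 3, beside 24.4% of genes, and 14 lower, beside 24.2%. WT had 0 higher, beside 23.8%, and 18 lower, beside 24.1%, of which 14 were V segments.

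Part of the recombination machinery was also lower in the KO libraries. Of 15 genes measured, 4 were called lower in KO and 0 higher by edgeR, beside 1.81% and 2.94% of all measured genes, with a median log2 difference of -0.24, beside 0.00 over all genes. Rag2, a subunit of the recombinase, had 79.8 CPM in KO group 3 and 88.5 in KO group 2, against 120 in WT group 3 and 172 in WT group 2 (log2 difference -0.78, SE 0.15, edgeR adjusted p = 4.97e-05). Rag1, its catalytic partner, had 153 CPM in KO group 3 and 227 in KO group 2, against 254 in WT group 3 and 322 in WT group 2 (log2 difference -0.62, SE 0.14, edgeR adjusted p = 0.000995). Both genotypes were apart in each gene. Hmgb2, a DNA-bending cofactor, fell by 0.52 on the log2 scale (SE 0.14, edgeR adjusted p = 0.00559), and Xrcc6, the Ku70 end-joining protein, by 0.45 (SE 0.14, adjusted p = 0.0253). For the shared sorted group effect, Rag1 alone of the 15 was called, lower in group 3 (log2 difference -0.45, SE 0.14, edgeR adjusted p = 0.0447). Of all measured genes, 1.14% were called lower and 2.17% higher for that effect. Dntt, which adds bases at the joints, was at 1272 CPM in KO group 3, 1861 in KO group 2, 1644 in WT group 3 and 1933 in WT group 2 (adjusted p = 0.563 for genotype, edgeR). The part of these genes in the J difference was not tested.

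Of the 7 partners of the beta chain, 1 was called lower in KO and 0 higher by edgeR, beside 1.81% and 2.94% of all measured genes. Ptcra, the surrogate chain that pairs with beta before an alpha chain exists, had 26.1 CPM in KO group 3 and 34.5 in KO group 2, against 69.9 in WT group 3 and 71.9 in WT group 2 (log2 difference -1.23, SE 0.18, edgeR adjusted p = 7.01e-09). Trac, the alpha constant region, had 2082 CPM in KO group 3, 2610 in KO group 2, 2376 in WT group 3 and 2129 in WT group 2 (log2 difference 0.05, SE 0.14). The CD3 signalling chains Cd3d, Cd3e, Cd3g and Cd247 had log2 differences between -0.10 and 0.08.

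The alpha chain segments, which have no D, gave values of the same kind. Of 32 measured alpha J segments, 31 had a log2 difference below 0 between KO and WT, beside 49.6% of all genes, with a median of -0.57, and of 61 alpha V segments 29 did, with a median of 0.03. None of either was called by edgeR, beside 1.81% of all measured genes called lower and 2.94% called higher. Alpha J segments summed to 134 CPM in KO group 3 and 174 in KO group 2, against 183 in WT group 3 and 261 in WT group 2. These sums are over 59 segments, so many lay near the 2 CPM that made a segment measured. A segment that reached it in a WT library alone was thereby favoured to have a difference below 0. How many did so was not counted.

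Between Trbv1 and Trbv31 (chr6:40891229-41558452) lie 16 genes that are no segment, 2 of them measured. Prss2, one of a family of similar trypsinogen genes whose reads may not separate fully, had 168 counts in KO group 3 and 152 in KO group 2, against 91 in WT group 3 and 73 in WT group 2 (log2 difference 0.97, SE 0.30, edgeR adjusted p = 0.0288). It was the only one of the 2 called, beside 2.94% of all measured genes called higher, and its direction was opposite to that of the J segments.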

How the data were processed

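For each of the 4 libraries the authors deposited gene counts by Ensembl ID and, separately, RPKM values. The submitters' processing notes name TopHat2 2.0.12 and the mm10 genome. The counter, its annotation, the strand setting and the read layout are not given in the sources used here, so overlapping and antisense genes cannot be told apart. Counts and deposited RPKM together gave 1 whole gene length per gene, the same in every library, within 0.01 bp. Of the gene IDs, 34490 matched GENCODE M21 and 785 did not, and these stayed in library totals (0.119% to 0.128% of counts). The RPKM served for levels per length.

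Shares were taken within a class of segments with exact Clopper-Pearson 95% intervals. Counts were scaled with TMM on measured genes (edgeR 4.0.16, R 4.3.3). Ratios of 2 libraries have exact conditional binomial intervals, and so do ratios of shares, with the class total taken as fixed. Ratios per C count have intervals from a normal approximation on the log scale. The 2-fold rule used log2 of CPM plus 0.5. Genotype and sorted group effects came from edgeR's quasi-likelihood F test on all 12490 measured genes (both factors without interaction, leaving 1 degree of freedom; Benjamini-Hochberg threshold 0.05). The dispersion was 0.0288 and each gene's spread was shrunk fully to the trend. DESeq2 1.42.0 was an alternative. The scripts were tested on simulated data. Sequences and motifs were read from GENCODE M21 transcripts.

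Named were both C and both D segments, V and J segments with a mean share of at least 3%, segments past 2-fold in share with at least 30 counts, and up to 4 called genes per list; Trbv29, Trbv21 and others outside this rule were named after their values were seen. The members and gene lists were chosen with earlier results of these data known. Nothing states how many mice or sorts stand behind a library.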

Additional observations from a re-analysis of the deposited data

Results flagged for a closer look

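Some segments had KO over WT ratios of TMM-scaled counts on opposite sides of 1 in the 2 sorted groups, each beyond counting error, and these differences between sorted groups were not tested. Both constant segments were lower in KO in group 3 and higher in group 2: Trbc1 was at 0.786 in group 3 and 1.11 in group 2, and Trbc2 at 0.857 and 1.23. The V segments went the other way, higher in KO in group 3 and lower in group 2. Trbv3 was at 1.14 in group 3 and 0.784 in group 2, Trbv5 at 1.12 and 0.853, and Trbv17 at 1.46 and 0.768. Trbv26 was at 1.69 in group 3 and 0.739 in group 2, and Trbv31 at 1.23 and 0.835. Opposite directions of this kind set KO group 3 and WT group 2 against KO group 2 and WT group 3. The number of genes with at least 1 count splits the libraries in the same way (20521 and 20440 against 23925 and 23325). With 1 library per group, a difference between sorted groups cannot be told apart from that split.

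For group 3 over group 2, 3 V segments were higher in KO and lower in WT, again untested as a difference. Trbv17 was at 1.4 in KO and 0.736 in WT, Trbv20 at 1.25 and 0.844, and Trbv31 at 1.28 and 0.87. Each pair rests on the same 4 libraries as the KO over WT ratios, so it is not separate evidence. KO group 3 was the library with the most V counts per 1000 C counts, 234, against 148 in KO group 2, 169 in WT group 3 and 187 in WT group 2.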

How the results depend on the processing

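No paired analysis was possible because each group holds 1 library and the labels carry no replicate numbers. The genotype effect called 593 genes and 3 segments. It called 393 and 0 with edgeR's filterByExpr, 1 and 0 with no filter, 179 and 0 with DESeq2, and 39 and 0 without sorted group in the model. With DESeq2 size factors 1 segment was called, Trbj1-5 (adjusted p = 0.0388; over all alternatives 0.0105 to 0.911). With a library left out the other factor had to leave the model as well, so the base is those 39 genes: 41 were called without KO group 3, 62 without KO group 2, 81 without WT group 3 and 17 without WT group 2, and 0 segments each time. With library totals all 3 segments were called and all genes split into 301 higher and 277 lower, against 367 and 226. The sorted group effect called 413 genes, 261 with filterByExpr, 0 with no filter, 139 with DESeq2, 22 without genotype in the model and, from that base, 9, 5, 36 and 10 without the same libraries in turn; 0 segments were called in each.

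Past 2-fold, KO over WT in group 3 held 970 genes and 6 segments: 304 and 1 with a pseudocount of 2 CPM, 206 and 3 at 10 CPM, and 2259 genes with no filter. KO over WT in group 2 held 1111 genes: 426 with the larger pseudocount, 279 at 10 CPM, and 2970 with 1 segment with no filter. In KO, group 3 over group 2 held 979 genes and 1 segment: 341 and 0, 199 and 0, and 2378 genes under the same settings. In WT it held 884 genes: 289, 187 and 2282. With the pseudogene Trbj2-6 out of the J total the Trbj1 share was 80.7% in KO group 3, 81.7% in KO group 2, 82.7% in WT group 3 and 81.9% in WT group 2. Per kb the Trbc1 share was 35.0% in KO group 2, 36.9% in WT group 3 and 37.5% in WT group 2. The cause of these changes was not tested. The 3 called segments kept their direction under these alternatives; other called genes and the 2-fold calls were followed as counts only. With 1230 to 2565 J counts per library, single J segments have wide intervals, and D segments allow no ranking.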
